A study of Homo sapiens with 12 samples.

Results

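Oxidative phosphorylation genes were followed in HDLM-2 cells, a long-established line from human Hodgkin lymphoma, which were cultured for 24 h with or without 2 drugs. The members were chosen by a rule on gene symbols that uses no measured value. They are the probes named for subunits of complex I (symbols beginning NDUFA, NDUFB, NDUFC, NDUFS or NDUFV), complex II (SDHA, SDHC and SDHD), complex III (UQCR genes and CYC1), complex IV (COX4 to COX8 genes) and complex V (ATP5F1, ATP5M and ATP5P genes). The rule took 86 of the 18852 gene symbols on the Illumina bead array, through 120 of its 48803 probes. Of the 86 symbols, 33 belonged to complex I, 3 to complex II, 8 to complex III, 10 to complex IV and 16 to complex V. The same symbols took in 7 complex I assembly factors (NDUFAF1 to NDUFAF7), 7 tissue-restricted isoforms or gene copies and 2 pseudogenes, which are described apart. SDHB, which the rule also names, and UQCRFS1 were not among the symbols taken, so complexes II and III are described without them.

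The 12 arrays formed 4 groups of 3, labelled with replicate letters A, B and C. The control received no drug. Perifosine is a membrane-active alkylphospholipid and AKT inhibitor, and was given at 10 µM. Sorafenib inhibits RAF and several receptor kinases, and was given at 5 µM. The combination held both at these doses. All 4 groups are cultures of the same single cell line.

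Oxidative phosphorylation takes place in the inner mitochondrial membrane. Complexes I and II take electrons from NADH and succinate, complex III passes them on through cytochrome c, and complex IV hands them to oxygen. Complexes I, III and IV pump protons as they do so, and complex V, the ATP synthase, uses the returning protons to make ATP. Most subunits are encoded in the nucleus and imported, and many of their promoters are bound by the transcription factors NRF1 and GABP (an ETS family factor). Sorafenib is known as an agent that can impair mitochondrial respiration in cultured cells, so transcript levels of the machinery itself are one readout of interest after this drug.

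The promoters of the members are shown because a shared control of these genes is usually traced to such sites. RefSeq windows (GRCh38.p14) covering the 250 bases before the annotated start were at hand for 69 member genes. The letters GCGCANGCG, an NRF1 core motif, occurred on either strand in 21 of the 69 windows (30.4%), against 2178 of 27305 genes with such a window (7.98%). The letters CCGGAAG, an ETS core that GABP can bind, occurred in 18 of the 69 (26.1%) against 2795 of 27305 (10.2%). Both motifs were present in 4 member windows, those of ATP5PF, COX6A1, SDHD and UQCR11. In the stretches below, written 5′ to 3′ on the gene's strand, capitals mark the NRF1 letters or their reverse complement. One gene is given for each of complexes II to V, and the whole window is given for NDUFB4, the complex I subunit that the results turn on.
NDUFB4, complex I, chr3:120596086-120596335, plus strand: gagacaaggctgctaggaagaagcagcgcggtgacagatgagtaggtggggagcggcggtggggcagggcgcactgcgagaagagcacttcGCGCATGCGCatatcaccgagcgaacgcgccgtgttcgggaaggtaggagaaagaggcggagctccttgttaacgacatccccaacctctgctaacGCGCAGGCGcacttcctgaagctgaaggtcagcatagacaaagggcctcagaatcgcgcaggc
SDHA, complex II, chr5:218143-218172, plus strand: gggtccgctttGCGCAGGCGcggcgccccc
UQCRC1, complex III, chr3:48609674-48609703, minus strand: gtacggtactgCGCCTGCGCcgcgaccgcc
COX6A1, complex IV, chr12:120437883-120437912, plus strand: cggagggcacaCGCATGCGCacgaaggaaa
ATP5F1C, complex V, chr10:7788145-7788174, plus strand: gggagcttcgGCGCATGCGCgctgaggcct
The NDUFB4 window held 3 matches in 2 stretches. A match describes the letters of a window and not a bound site.

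Each array gave 21916 to 22080 probes above a background threshold of about 225 intensity units, and 106 to 110 of the 120 member probes were among them. A probe was tested if it passed on at least 3 of the 12 arrays, which 93.3% of member probes and 51.8% of all probes did. With the brightest passing probe standing for each gene, 82 of the 86 members were tested among 13606 genes. NDUFA5, COX4I2, COX6A2 and COX7B2 did not pass. Of the 8 Hodgkin cell markers, 7 were above background on 12 of 12 arrays, including TNFRSF8 (CD30) at 384.0 to 601.3 units, and IL13 was on 0. Markers of other cell types were dim or below background. Of the B cell markers, MS4A1 was above background on 12 arrays (at most 318.9 units), CD79A on 7, CD79B on 5 and PAX5 on 0. Of the T cell markers, CD3E was on 7 arrays, CD3D on 3 and CD8A on 1, and of the myeloid markers FCGR3A was on 12, CD14 on 10 and LYZ on 10, at most at 292.1 units. COL1A1 was on 8 arrays, COL3A1 and VWF on 0, and PECAM1 on 12, at 308.6 to 425.4 units. In such bulk RNA, fewer cells of a type and less RNA per cell cannot be told apart.

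Below, a level is a log2 signal after background correction and quantile normalization, and a change is a difference of log2 levels ± its standard error. Adjusted p-values are those of limma over 13606 genes, a gene is called when its adjusted p is under 0.05, and every group has n = 3. No label states whether the 3 arrays of a group stand for separate cultures, and p-values then measure the spread among these arrays alone, which may be technical.

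Before the groups are compared, 2 arrays need mention because they departed from their groups in the same genes. Perifosine B and sorafenib C, each set against the mean of the other 2 arrays of its group, moved together over the 82 members, with r = 0.688 across genes, which are not independent replicates. The other 53 pairs of arrays from different groups had r between -0.612 and 0.545. No label points to this pair, which was picked from these same data, so its lead over the others is a description and not a test. Pairs that share an array or a group are also not independent. In these 2 arrays 6 members departed by more than 0.4 in the same direction, and no other pair of arrays shared more than 2 such members. The matching count over all genes was not made. Over all tested genes this pair also had the highest correlation of deviations, 0.387, so the shared departure was not confined to the members. NDUFC1, a small membrane subunit of complex I, read 11.08, 12.06 and 11.26 with perifosine and 11.24, 11.33 and 11.93 with sorafenib, against 11.47, 11.22 and 11.18 in the control. NDUFAB1, the mitochondrial acyl carrier protein, read 14.51, 14.99 and 14.27 with perifosine and 14.38, 14.38 and 15.04 with sorafenib. In both genes the high arrays were perifosine B and sorafenib C, and the remaining arrays of those groups lay near the control. CYC1, the cytochrome c1 subunit of complex III, went the other way, at 13.80, 13.40 and 13.94 with perifosine and 13.99, 13.84 and 13.39 with sorafenib. SDHD, NDUFV2 and the assembly factor NDUFAF6 were the other 3 members, all high in both arrays. The labels name no batch. The changes of NDUFB4 and NDUFB10 and medians of complex V are given below also without these 2 arrays. Other members and medians are not, apart from the medians named at the end.

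**Figure D1:**
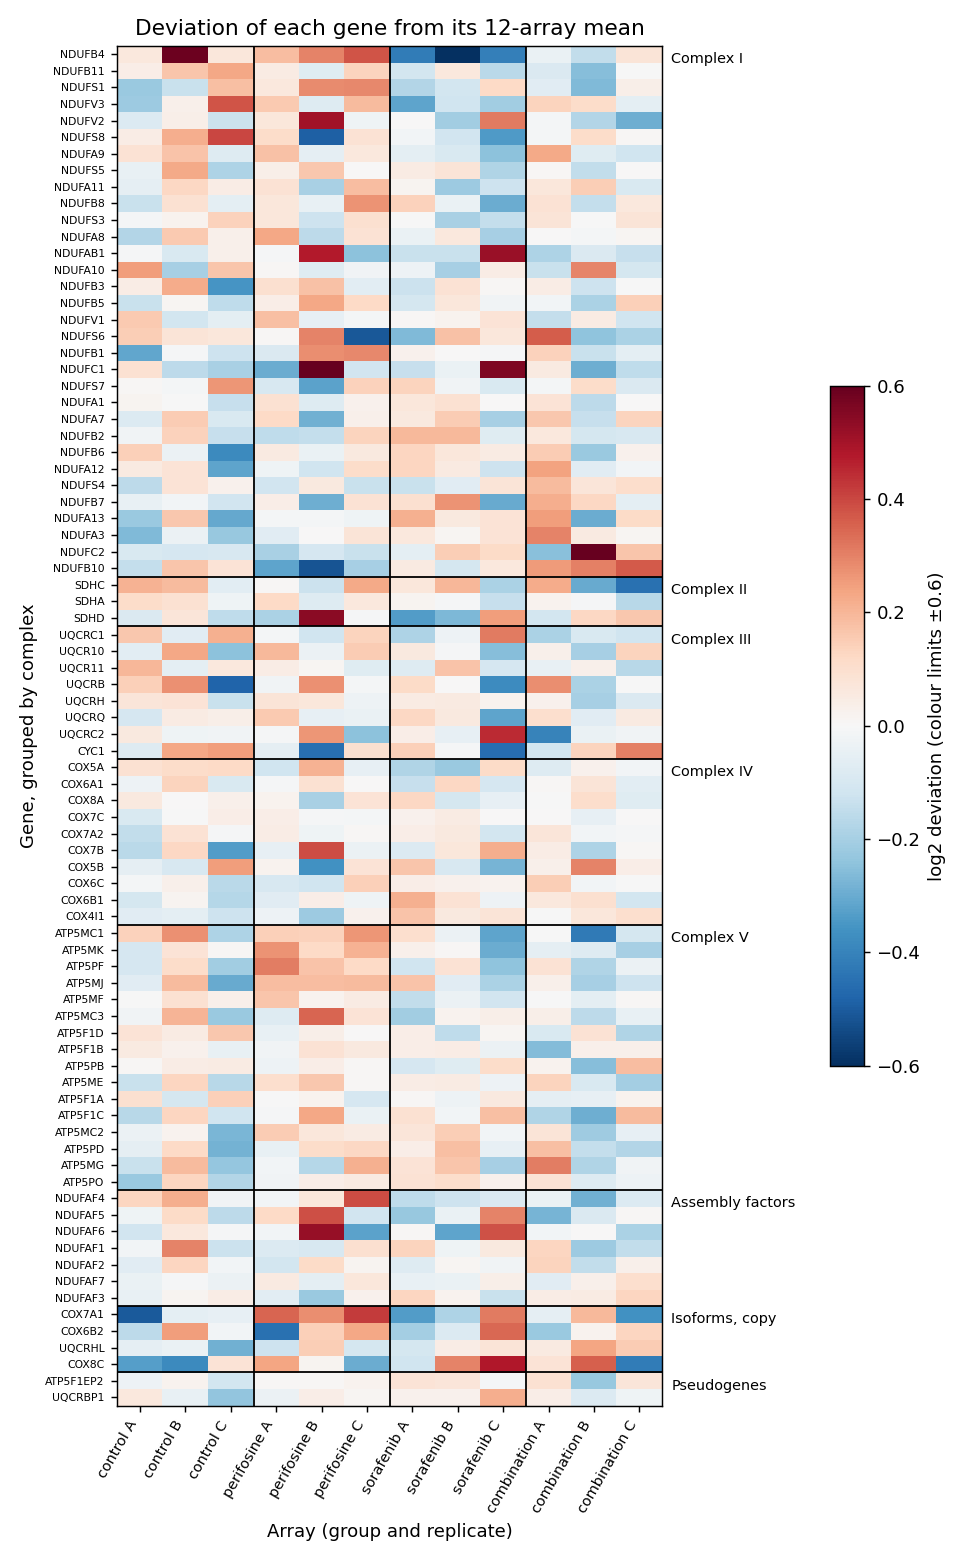
Each row is 1 of the 82 tested genes, grouped by complex and ordered within it by the change with sorafenib, and each column is 1 array. Colour is the log2 deviation from the gene's 12-array mean, with the scale ending at 0.6 either way. NDUFB4 is low on the 3 sorafenib arrays, NDUFB10 is low on the 3 perifosine arrays and high on the 3 combination arrays, and NDUFC1, NDUFAB1 and SDHD are high on perifosine B and sorafenib C.

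The first question was what each drug did to these transcripts alone and together. By limma's moderated F test 1 of 82 members differed among the 4 groups, NDUFB4, a share near the 0.963% of all genes, and this call was lost in 11 of 12 fits that left out 1 array. Sorafenib against the control lowered NDUFB4 and raised 0 members, where 0.816% of all genes were called in either direction. Perifosine against the control called 0 members (0% of all genes by limma), although 3 of 82 members and 546 of 13606 genes had an unadjusted p under 0.05, and the smallest adjusted p of a member was 0.990. The combination against the control called 0 members, where 0.625% of genes were called and 4 members had an unadjusted p under 0.05, with a smallest adjusted p of 0.296.

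The combination against perifosine called 1 member, NDUFB10, as higher, where 0.706% of genes were called. The combination against sorafenib called 0 members (0% of genes), with 2 members and 826 genes at an unadjusted p under 0.05. Sorafenib against perifosine called NDUFB4 as lower, where 0.441% of genes were called. These pairwise comparisons share their arrays, so a gene that is low in 1 group appears in several of them.

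Averaged over the arrays without and with perifosine, the sorafenib effect was measured with 6 arrays on each side, and it called 3.65% of all genes and 1 of 82 members, NDUFB4. At an unadjusted p under 0.05 there were 8 members (9.76%) and 2451 genes (18.0%). The perifosine effect averaged in the same way called 0 members (0% of genes), with 1 member and 455 genes at an unadjusted p under 0.05. The interaction, which asks whether the combination departs from the sum of the single drugs, also called 0 members (0% of genes), with 2 members and 1034 genes at an unadjusted p under 0.05.

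The small changes were bounded. For 76 of 82 members (92.7%) the 95% interval of the change after sorafenib alone lay within 1.5-fold of no change, against 71.2% of all genes. The same held for 74 members (90.2%, against 80.8%) after perifosine and for 78 (95.1%, against 74.9%) after the combination. Over both backgrounds it held for 81 members (98.8%, against 92.7%) for sorafenib and for 82 members (100%, against 97.0%) for perifosine. The interaction was less well bounded, with 50 members (61.0%) inside 1.5-fold against 41.5% of genes, since its intervals reached 0.39 either side of the change at the median, and those of the pairwise comparisons 0.27. The residual SD of members had a median of 0.145 against 0.180 for all genes, which also narrows their intervals. Some members lay near the top of the scale. COX7C read 56654.7 to 62568.5 intensity units, where the highest value of any probe was 70194.4, and its residual SD was 0.042. Whether differences are compressed at such brightness was not tested, so narrow intervals alone do not show stable transcripts. The median size of change after sorafenib alone, whatever its sign, was 0.08 for members and 0.14 for all genes.

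**Figure D2:**
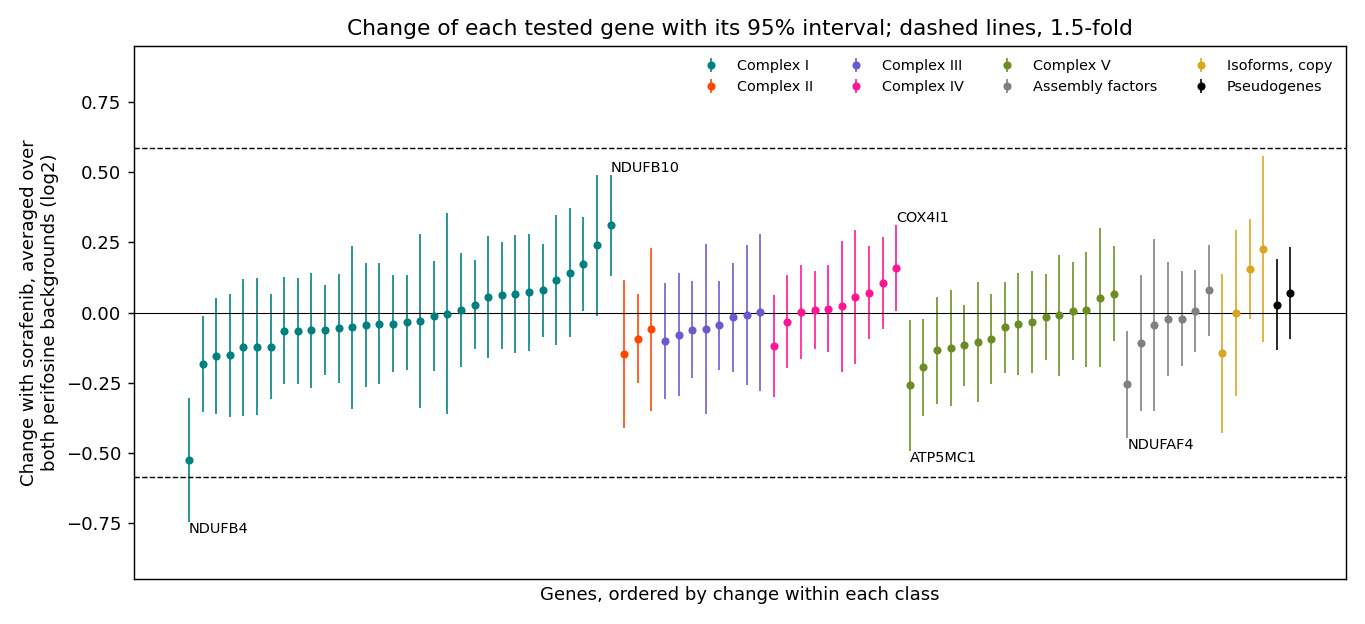
Points are the log2 changes with sorafenib, averaged over the arrays without and with perifosine, for the 82 tested genes grouped by class, and bars are 95% intervals from limma. Dashed lines mark a 1.5-fold change either way. The interval of NDUFB4 crosses the lower line, and those of the other 81 genes lie between the lines.

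Complex I, the largest complex and the entry point for NADH, had 32 tested members and both of the called genes. With sorafenib over both backgrounds its median change was -0.04, with 12 members above 0 and 20 below, 0 called higher and 1 called lower. Its mean deviation stayed between -0.04 and 0.07 on the 12 arrays. Neither of 2 core subunits that bind its flavin and iron-sulfur centres was called: NDUFV1 changed by -0.04 ± 0.08 (adjusted p = 0.866) and NDUFS1 by -0.15 ± 0.10 (adjusted p = 0.440).

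NDUFB4 is an accessory subunit in the membrane arm of complex I. Its brighter probe read 7.67, 8.19 and 7.67 in the control and 7.79, 7.90 and 7.98 with perifosine. It read 7.19, 6.97 and 7.20 with sorafenib and 7.56, 7.46 and 7.68 with the combination. The 3 sorafenib arrays lay below the other 9 arrays, and the combination lay between sorafenib and the control, touching the lowest control arrays. The change was -0.73 ± 0.14 for sorafenib against control (1.66-fold lower, 95% interval -1.04 to -0.42, adjusted p = 0.0346). Against perifosine alone, sorafenib alone was lower by a change of -0.78 ± 0.14 (adjusted p = 0.0334). For the combination against control the change was -0.28 ± 0.14 (adjusted p = 0.480), and for the combination against sorafenib it was 0.45 ± 0.14 (adjusted p = 0.760). Over both backgrounds the sorafenib effect was -0.53 ± 0.10 (adjusted p = 0.0129).

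This call rests on 1 dim probe. In deposited intensity units the probe read 323.4, 412.5 and 324.3 in the control, 341.6, 359.8 and 372.9 with perifosine, 265.7, 245.4 and 266.6 with sorafenib and 309.2, 296.1 and 325.3 with the combination, against a threshold near 225. A second NDUFB4 probe was above background on 12 of 12 arrays too. It read 277.0, 287.2 and 293.9 in the control, 260.9, 313.9 and 280.6 with perifosine, 268.7, 284.7 and 324.6 with sorafenib and 291.9, 325.5 and 312.0 with the combination. Its groups overlapped, and its change with sorafenib over both backgrounds was 0.13 ± 0.11, opposite in sign (adjusted p = 0.637 in a fit of every passing probe). The remaining NDUFB4 probe was above background on 0 arrays. With the mean of the 2 passing probes the change was -0.20 (adjusted p = 0.232) and the call was lost. RefSeq's gene table lists 12 numbered NDUFB4 pseudogenes, and whether a probe also binds their transcripts was not tested. Without any 1 of the 12 arrays the effect over both backgrounds kept its call (adjusted p 0.0167 to 0.0377), whereas sorafenib against control lost it in 8 of 12 fits and sorafenib against perifosine in 9 of 12. Without perifosine B and sorafenib C together the adjusted p was 0.0338 over both backgrounds, 0.0717 against control and 0.125 against perifosine.

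NDUFB10, another accessory subunit of the membrane arm, read 13.32, 13.63 and 13.55 in the control and 13.15, 12.95 and 13.27 with perifosine. It read 13.52, 13.36 and 13.53 with sorafenib and 13.72, 13.77 and 13.83 with the combination. The perifosine arrays were the lowest 3 and the combination arrays the highest 3 of the 12, while sorafenib overlapped the control. The change was 0.65 ± 0.12 for the combination against perifosine (1.57-fold higher, 95% interval 0.40 to 0.91, adjusted p = 0.0236). Its parts were -0.38 ± 0.12 for perifosine against control (adjusted p = 0.990) and 0.27 ± 0.12 for the combination against control (adjusted p = 0.372), neither called. The interaction was 0.68 ± 0.17 (adjusted p = 0.599). Sorafenib over both backgrounds gave 0.31 ± 0.08 (adjusted p = 0.0605). The call against perifosine was lost in 5 of 12 fits that left out 1 array, and without perifosine B and sorafenib C the change was 0.57 (adjusted p = 0.0819).

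**Figure D3:**
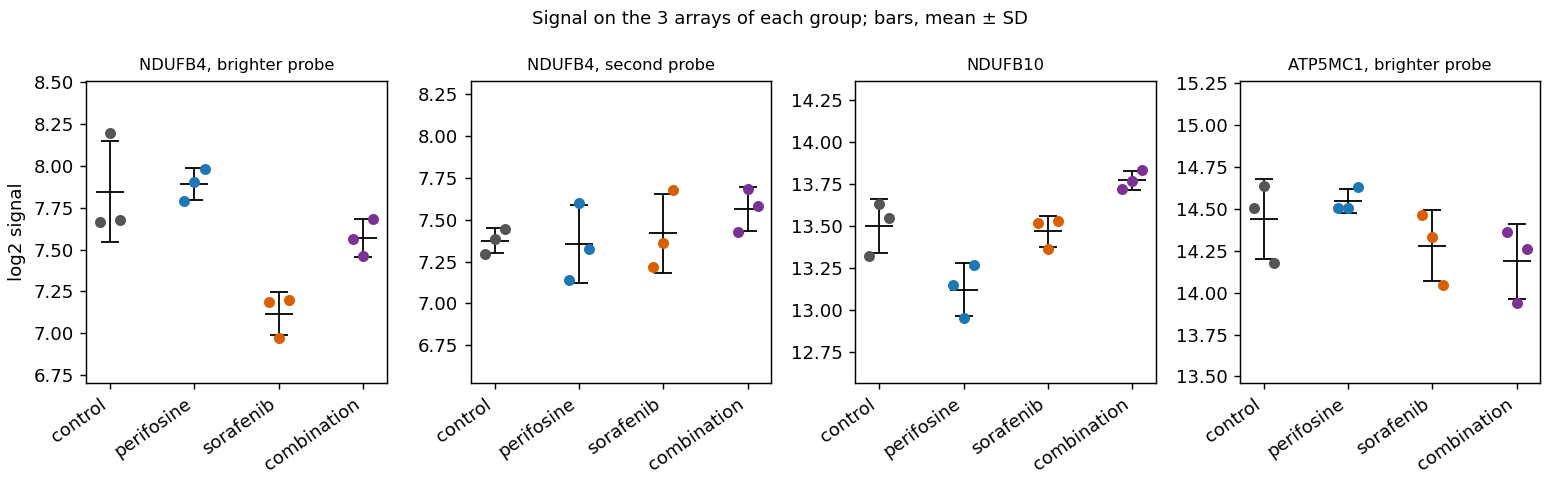
Points are the log2 signals of single probes on the 3 arrays of each group, with the group mean ± SD as bars, and the 4 panels have log2 axes of equal span centred on each probe's own mean. The brighter NDUFB4 probe is low with sorafenib at 6.97 to 7.20 while the second NDUFB4 probe overlaps between groups, NDUFB10 is low with perifosine and high with the combination, and ATP5MC1 overlaps between control and sorafenib.

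By sorafenib effect the outer members of complex I beside these were NDUFC2, at 0.24 ± 0.12 (adjusted p = 0.306), and NDUFB11, at -0.18 ± 0.08 (adjusted p = 0.247), neither called. NDUFC2, a membrane subunit, read 7.08, 7.07 and 7.08 in the control, 6.98, 7.07 and 7.04 with perifosine, 7.11, 7.32 and 7.29 with sorafenib and 6.92, 7.77 and 7.34 with the combination. Combination B was its highest array and combination A its lowest.

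Complex II, succinate dehydrogenase, belongs both to the respiratory chain and to the citric acid cycle. SDHA, its flavoprotein, changed by -0.09 ± 0.07 with sorafenib over both backgrounds, and its membrane anchors SDHC and SDHD by -0.15 ± 0.12 and -0.06 ± 0.13, with 0 of 3 called. SDHA read 13.56, 13.54 and 13.42 in the control, 13.57, 13.37 and 13.51 with perifosine, 13.47, 13.44 and 13.31 with sorafenib and 13.47, 13.44 and 13.29 with the combination. The 4 groups overlapped. SDHC was lowest on combination C, at 11.41, and overlapped the control, at 12.06, 12.04 and 11.79, through combination A at 12.08.

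Complex III, which oxidises ubiquinol, had 8 tested members and 0 calls in any comparison. With sorafenib over both backgrounds 7 of 8 were below 0, but their median was -0.05 and the lowest was UQCRC1, a core protein of the complex, at -0.10 ± 0.10 (adjusted p = 0.638). UQCR10, a small subunit, changed by -0.08 ± 0.10 and UQCRC2, the other core protein, by -0.01 ± 0.11. CYC1, which passes electrons to cytochrome c, changed by 0.00 ± 0.13. That value averaged -0.24 for sorafenib against control and 0.24 for the combination against perifosine, neither called. Both include a low array described above, sorafenib C at 13.39 and perifosine B at 13.40.

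Complex IV, cytochrome c oxidase, had 10 tested members and 0 calls in any comparison. Its median change was 0.03 after sorafenib, 0.02 after perifosine and 0.06 after the combination, each against control. The 95% intervals of 10 of 10 members lay within 1.5-fold in each of these 3 comparisons. COX4I1, the ubiquitous form of a regulatory subunit, read 14.82, 14.83 and 14.76 in the control, 14.85, 14.66 and 14.91 with perifosine, 15.06, 14.94 and 14.96 with sorafenib and 14.88, 14.95 and 14.99 with the combination. Its sorafenib arrays lay above all perifosine and control arrays, and the change over both backgrounds was 0.16 ± 0.07 (adjusted p = 0.260). COX6B1, facing the intermembrane space, changed by 0.11 ± 0.08 and COX5B by 0.05 ± 0.11. COX5A changed by -0.12 ± 0.08 and COX6A1 by -0.03 ± 0.08. Changes above and below 0 thus occurred within the complex.

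Complex V, the ATP synthase, had 16 tested members and 0 calls in any comparison. Averaged over its members, the deviation from the 12-array mean was -0.04, 0.10 and -0.11 on the control arrays and 0.07, 0.10 and 0.08 on the perifosine arrays. It was 0.01, 0.02 and -0.07 on the sorafenib arrays and 0.02, -0.14 and -0.05 on the combination arrays. The perifosine arrays lay above the sorafenib and combination arrays, but the control arrays spanned the perifosine level and the sorafenib level. The median change was 0.11 after perifosine (13 of 16 above 0), -0.01 after sorafenib (8 above 0) and -0.04 after the combination (6 above 0), each against control. All-gene medians in these 3 comparisons were between -0.005 and 0.001. The combination against perifosine gave a median of -0.13 with 15 of 16 members below 0, and the interaction a median of -0.20 with 12 of 16 below 0. Without perifosine B and sorafenib C the median after perifosine was 0.11 and that of the interaction -0.21. The control arrays moved both medians by more: they were 0.21 and -0.29 without control B, and 0.03 and -0.11 without control C. With every passing probe taken on its own they were 0.05 and -0.11.

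**Figure D4:**
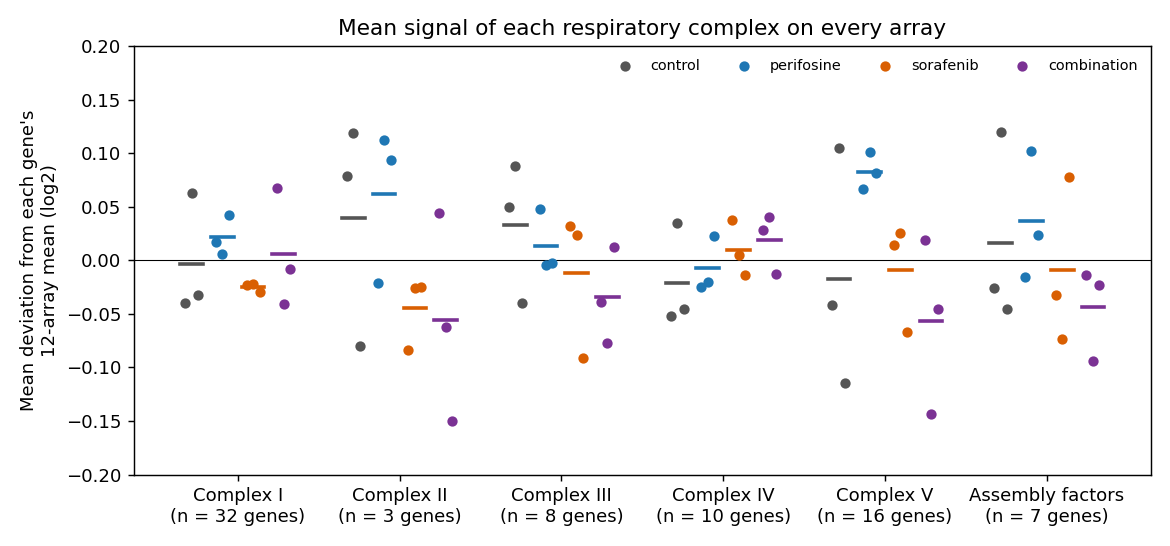
Each point is 1 array, giving the mean over the tested genes of a complex of the log2 deviation from each gene's 12-array mean, and horizontal bars are group means of 3 arrays. The complex means lie between -0.15 and 0.12 on the 12 arrays. For complex V the 3 perifosine arrays sit at 0.07 to 0.10 and the control arrays range from -0.11 to 0.10.

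In the catalytic head of the synthase, ATP5F1B, the catalytic beta subunit, changed by -0.05 ± 0.07 with sorafenib over both backgrounds (adjusted p = 0.771), and ATP5F1A, the alpha subunit, by -0.02 ± 0.07 (adjusted p = 0.935). ATP5PO, in the stalk that holds the head, changed by 0.07 ± 0.08 and ATP5MG, a membrane subunit, by 0.05 ± 0.11. ATP5MK, a small membrane subunit, changed by -0.20 ± 0.08 (adjusted p = 0.215).

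ATP5MC1 encodes subunit c of the proton-carrying ring, as do ATP5MC2 and ATP5MC3, whose mature proteins are identical. Its brighter probe read 14.50, 14.64 and 14.18 in the control, 14.51, 14.50 and 14.63 with perifosine, 14.47, 14.33 and 14.05 with sorafenib and 14.36, 13.94 and 14.26 with the combination. The combination arrays lay below the perifosine arrays, while control C was lower than 2 of the 3 combination arrays. The sorafenib change over both backgrounds was -0.26 ± 0.11 (adjusted p = 0.223), and a second probe, tested in the fit of every passing probe, gave -0.44 ± 0.12 (adjusted p = 0.0917). ATP5MC2 gave 0.01 ± 0.08 and ATP5MC3 -0.10 ± 0.10 on the same scale. The difference between the 3 genes was not tested, and RefSeq's table lists 8 numbered ATP5MC1 pseudogenes.

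The 7 assembly factors help to build complex I but are not part of it. None was called in any comparison, and their median with sorafenib over both backgrounds was -0.02. NDUFAF4, which acts early in assembly, was the single member whose 6 arrays with sorafenib did not overlap the 6 without it, as was true of 3.96% of all genes. It read 11.14, 11.23 and 10.99 in the control, 11.00, 11.08 and 11.40 with perifosine, 10.86, 10.89 and 10.93 with sorafenib and 10.98, 10.73 and 10.93 with the combination. Its highest sorafenib-treated array and its lowest untreated array were nearly level. The change was -0.26 ± 0.09 (adjusted p = 0.137), and a second probe gave -0.02 ± 0.14.

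Tissue-restricted isoforms were near or below background. COX4I2, known from lung, and COX6A2, of heart and muscle, were above it on 0 of 12 arrays, and COX7B2 on 1. COX7A1, the heart and muscle form, was above background on 3 perifosine arrays, 1 sorafenib array, 1 combination array and 0 control arrays. In deposited units it read 191.7, 217.4 and 218.0 in the control and 249.5, 243.1 and 255.6 with perifosine, so the control has only a bound, and the difference was not called (adjusted p = 0.990). COX8C was above background on 4 arrays and COX6B2, a testis form, on 8. NDUFA5, a complex I subunit with 1 probe, was above background on 0 arrays. UQCRHL, a copy of UQCRH, was above background on 12 arrays and changed by 0.15 with sorafenib over both backgrounds, against -0.05 for UQCRH. Neither was called, and the difference between them was not tested. The pseudogenes ATP5F1EP2 and UQCRBP1 had 0 calls. Whether their probes, or that of UQCRHL, also bind transcripts of the parent genes was not tested.

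Agreement between probes gives a second view of error. Of the 25 members with more than 1 passing probe, 13 had probes of the same sign with sorafenib over both backgrounds and 12 had probes of opposite sign. The probes of a gene differed by 0.09 at the median. NDUFB4 (0.65) and NDUFAF3 (0.30) were the 2 genes whose probes differed by more than 0.25. Among members whose promoter window held the NRF1 letters, the median change with sorafenib over both backgrounds was -0.04 (20 tested), and among those without it was -0.02 (46 tested). With the ETS letters these medians were -0.02 (18 tested) and -0.02 (48 tested).

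Other mitochondrial genes give the setting for this result. With sorafenib over both backgrounds, 0 of 34 further assembly factors and 0 of 19 genes of the electron carriers, citric acid cycle and pyruvate dehydrogenase were called, with medians of -0.02 and -0.06, where 3.65% of all genes were called and 50.9% were below 0. Among 14 regulators of mitochondrial biogenesis 1 fell, TWNK, the helicase of mitochondrial DNA replication, by a change of -0.40 ± 0.09 (adjusted p = 0.0361). The mitochondrial ribosomal proteins translate the subunits encoded in mitochondrial DNA. Of 78 genes with their symbols, among them the pseudogenes MRPL42P5 and MRPS31P5, 69 were below 0 with a median of -0.11. Of these 78 genes 2 passed the test, a share below that of all genes. MRPL38 changed by -0.41 ± 0.08 (adjusted p = 0.0145) and MRPL1 by -0.34 ± 0.08 (adjusted p = 0.0460). Of 16 genes of the mitochondrial and integrated stress response 7 rose and 0 fell, whereas sorafenib alone against control called 2 of them. The 7 were ASNS, ATF4, ATF5, CHAC1, DDIT3, MTHFD2 and PSAT1, which are genes of the integrated stress response. Not called were TRIB3 at 0.31 ± 0.11 (adjusted p = 0.136), SHMT2 at 0.26 ± 0.09 (adjusted p = 0.131), FGF21 at 0.12 ± 0.10 and GDF15 at 0.01 ± 0.11. PSAT1, of serine synthesis, changed by 1.04 ± 0.07 (adjusted p = 1.28e-05) and ASNS, asparagine synthetase, by 0.87 ± 0.08 (adjusted p = 8.94e-05). The mitochondrial chaperones of that list were not called, with HSPA9 at -0.23 ± 0.08 (adjusted p = 0.125), HSPD1 at -0.21 ± 0.09 (adjusted p = 0.220) and HSPE1 at -0.21 ± 0.08 (adjusted p = 0.211), nor were the proteases CLPP at -0.06 ± 0.10 and LONP1 at 0.07 ± 0.08. The subunits encoded in mitochondrial DNA were sought by symbols with the prefix MT-. Of these, 0 were among the array's gene symbols and 0 were tested, so nothing is said of them here.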

How the data were processed

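Trizol-extracted, DNase-treated total RNA was turned into biotin-labelled cRNA per the labels' protocols. Analysis began from deposited intensity values of each probe, which the authors gave on a linear scale. BeadStudio is the tool named in the submitters' processing notes; its normalization settings are not given in the sources used. Sorted within arrays, the deposited intensities differed between the 12 arrays by 0.0519% at the median, so they already shared 1 distribution. The lowest was 109.7, so they still held background. A second table, with 24 columns whose names match no sample label, was not used.

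Background was corrected with normexp (offset 16) and arrays were quantile normalized and log2 transformed in limma 3.58.1 (R 4.3.3). The threshold on each array was the upper 5% point of a normal distribution fitted to the dim probes (224.6 to 225.2), and probes above it on at least 3 arrays were kept, 25279 in all. The platform annotation gave 28098 probes 1 symbol, 13 several, and did not list 20692. All 120 member probes carry the same symbol in RefSeq. The brightest passing probe stood for a gene. A single linear model of the 4 group means used 12 arrays, with Benjamini-Hochberg adjustment within each comparison at 0.05. The fit was tested on simulated data. Arrays have no read depth, and their number limits the precision.

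Members, gene lists and tests were chosen with earlier results of these data known. Named are all called members, the 2 highest and 2 lowest of each complex by sorafenib effect, core subunits and isoforms. Same-lettered samples shared little deviation: of 18 pairs 2 had a correlation of deviations over 0.1 (range -0.239 to 0.205). The main fit therefore took samples as unpaired. The labels do not say what the letters stand for, and such correlations cannot settle whether they pair samples. Alternatives covered background, normalization, filter, probes, array weights, groups, the replicate block and left-out arrays.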

Additional observations from a re-analysis of the deposited data

How the results depend on the processing

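No called change reversed its sign in the settings tallied for its gene. For NDUFB4 over both backgrounds the change ran from -0.54 to -0.20 in 10 settings. Its second probe, at 0.13 on its own, lay outside that range. Of 882 gene changes and 708 medians recomputed under an alternative, 42 and 40 changed their call or moved by more than the spread between arrays. Without perifosine B and sorafenib C, the median of complex III after sorafenib against control went from -0.05 to 0.02. The interaction median then went from -0.004 to -0.07 in complex I, from 0.005 to -0.09 in complex II and from -0.01 to -0.07 in complex IV. The counts of 0 members for perifosine, the combination against control, the combination against sorafenib, the perifosine effect over both backgrounds and the interaction stayed 0 under every alternative run. Sorafenib over both backgrounds called 2 members in place of 1 with probes above background on 12 arrays, array weights, no background correction or offset 50, where NDUFB10 joined, and 0 with the mean of passing probes. The F test called 2 in place of 1 under the same 4 settings, and 0 with the mean of probes, every probe on its own, no filter, the replicate block, or perifosine B and sorafenib C left out. Sorafenib against control and against perifosine went from 1 to 0 with those 5 settings and with a fit of only the groups compared, and the combination against perifosine did so with these except the mean of probes. With the replicate block, adjusted p was 0.0777 for NDUFB4 after sorafenib and 0.0556 for NDUFB10 in the combination against perifosine. Leaving out 1 array gave 0 to 1 members for these 3 comparisons and the F test, whose call was lost in 11 of 12 fits, and 1 to 1 for sorafenib over both backgrounds. All-gene calls moved too: 111 for sorafenib against control became 40 with no filter, 48 with the replicate block, 23 with only the groups compared and 36 to 167 without 1 array. For sorafenib over both backgrounds 496 became 951 with array weights and 815 with no background correction. The cause of these shifts was not tested.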
